A study of Equus caballus with 23 samples.

Results

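A set of 113 genes was lower after exercise than at rest in each of 11 horses, out of 11330 genes counted in biopsies of the middle gluteal muscle. The genes were selected on the readout itself. Reads per gene were expressed as counts per 1000000 counts of the library (CPM), and for each horse the difference was taken as log2(CPM + 0.5) after exercise minus log2(CPM + 0.5) at rest. A gene was kept when this difference was below 0 in all 11 horses and the gene was not among the 100 genes with the highest mean CPM at rest, which left 11230 genes that could be chosen. The 113 genes chosen were 1.01% of these. All values of the contrast between rest and exercise given for the 113 genes are therefore descriptions of what the choice selected. Counts of calls and of falls beyond counting error in that contrast are given beside those over all genes, and they support nothing about the genes chosen.

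The rest group held 12 libraries, 1 from each of 12 horses. The after exercise group held 11 libraries, from biopsies taken 3 h after an aerobic exercise test under a rider. The labels name more horses, and more horses with both biopsies, than the methods of the study describe, and the labels were followed. The horses were adult Arabians according to the labels and methods of the study, an Arabian cross among them, of mixed sex, and ages of single horses were not given in the labels. The study recruited healthy horses and horses with myofibrillar myopathy, and because the labels do not say which horse had the disease, both kinds stood in the same group here. Rest and exercise biopsies of a horse were taken on alternate sides, and the rest biopsy always came first, so that exercise cannot be told apart from a later time of day, from a repeated biopsy or from the other side of the body. The numbers 1 to 12 given to the horses follow the order of their labels, and horse 11 had a rest library alone. Total counts ranged from 22528109 to 29452440 at rest and from 23048221 to 26388085 after exercise.

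The middle gluteal is a large locomotor muscle of the hindquarters, and a needle biopsy of it holds muscle fibers together with vessels, connective tissue and blood cells. In the hours after endurance exercise, skeletal muscle is known to change the transcript levels of genes of metabolism, stress responses and the daily clock, and transcript levels can fall through less transcription or through faster decay. In whole muscle, fewer cells of a type and less RNA per cell cannot be told apart. Genes were listed by Ensembl identifier, and 0 of the identifiers matched an entry of the horse gene table used here (RefSeq, from a thoroughbred assembly), so the genes are described by their values and rank and not by their function, and the tissue could not be checked against marker genes. Identifiers are given for 2 genes, the gene with the most negative median difference and, of the rest, the gene whose weakest fall was the most negative. The other genes are referred to by their rank, where rank 1 is the most negative median difference over the horses.

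The falls were mostly small. The median difference of a gene over the 11 horses ranged from -1.36 to -0.07 among the 113 genes, with a median of -0.35 and quartiles of -0.45 and -0.23, whereas the same median over all 11330 genes was -0.04 with quartiles of -0.14 and 0.04. The median of -0.35 corresponds to a change of -21.5% in CPM with the pseudocount. Only 5 of the 113 genes had a median difference below -1. Another 16 lay between -1 and -0.5, 74 between -0.5 and -0.2, and 18 above -0.2. Among all genes in the table, 10 had a median difference below -1, of which the other 5 were not lower in every horse.

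ENSECAG00000013247, the gene of rank 1, had a lowest, median and highest value of 5.80, 14.1 and 27.3 CPM at rest and of 1.94, 6.55 and 10.9 CPM after exercise in the 11 horses with both biopsies. Its mean was 15.9 ± 5.98 CPM (SD, n = 11) at rest and 6.72 ± 2.89 CPM after exercise. The groups overlapped through horse 12 alone, which was low on both occasions (5.80 and 1.94 CPM). The next lowest rest value was 11.8 CPM in horse 1, above all after exercise values, whereas 5 after exercise libraries lay below the rest value of horse 12. Within horses the difference ranged from -1.78 in horse 6 to -0.35 in horse 3, with a median of -1.36. Horse 3 (14.1 to 10.9 CPM) and horse 4 (15.6 to 10.5 CPM) stood apart from the other 9 horses, in which the difference was -0.95 or lower. The log2 fold change fitted with horse as a block was -1.23 (standard error 0.118, edgeR), and each library held between 46 and 729 counts of this gene.

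ENSECAG00000018928, of rank 3, ranged from 14.3 to 39.7 CPM at rest with a median of 24.8, and from 5.76 to 16.8 CPM after exercise with a median of 11.4. Its mean fell from 26.4 ± 8.0 CPM (SD, n = 11) to 10.8 ± 4.01 CPM. It had the steadiest of the large falls, from -1.76 in horse 6 to -0.77 in horse 3. The 2 ranges overlapped, with 9 of 11 after exercise libraries below the lowest rest library, and the 2 that were not came from horses 3 and 7, which were among the 4 horses highest at rest. Horses 3, 10 and 12 had the weakest falls (-0.77, -0.83 and -0.78), and the other 8 horses lay at -1.11 or lower. The fitted log2 fold change was -1.27 (standard error 0.0932, edgeR). The exact 95% Clopper-Pearson interval was taken of the after exercise share of a horse's counts of a gene, which covers counting error only. For both genes, the share expected from the library totals alone lay above this interval in all 11 horses. Since both were chosen for their falls, this describes their depth of counting and supports nothing further. A fall of this kind is said below to exceed counting error.

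**Figure D1:**
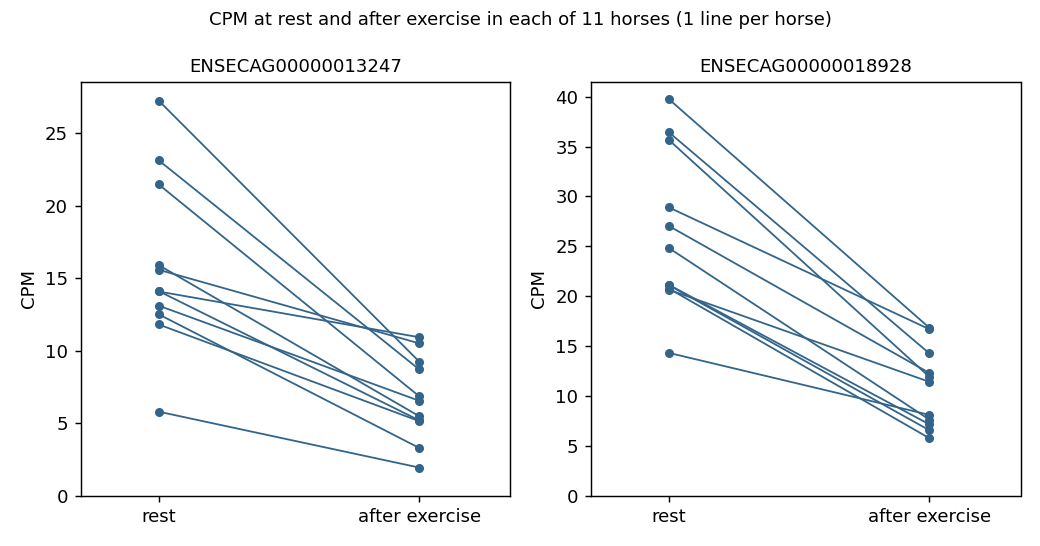
CPM of the 2 identified genes at rest and after exercise (y axis, from 0), with 1 line for each of 11 horses. Every line falls, and the ranges of rest and after exercise overlap for both genes.

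The other 3 genes with a median difference below -1 varied in how evenly they fell. The gene of rank 2 ranged from 2.92 to 12.9 CPM at rest and from 1.45 to 4.84 CPM after exercise, and its difference ran from -1.99 in horse 5 to -0.62 in horse 12. The gene of rank 4 spread most of the 5, from -1.84 in horse 6 to -0.20 in horse 2. The gene of rank 5 ranged from 11.04 to 29.95 CPM at rest and from 6.86 to 15.3 CPM after exercise, and its weakest falls were in horse 12 (-0.32) and horse 9 (-0.40). Thus each of these 5 genes had its weakest fall in horse 2, 3 or 12 and its strongest in horse 5 or 6.

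How evenly a gene fell differed widely among the 113 genes. The standard deviation of a gene's 11 differences ranged from 0.06 to 0.74 with a median of 0.22, beside a median of 0.25 over all genes. It was larger for genes with larger falls (Spearman's rho of -0.77 with the median difference across the 113 genes). The choice of genes below 0 in all horses can itself limit the spread of small falls. The steadiest gene, of rank 43, fell by between -0.46 in horse 1 and -0.23 in horse 5, from a median of 34.8 CPM to a median of 26.6 CPM, and its fall exceeded counting error in all 11 horses. Only 10 genes of the whole table had differences that spread as little or less. At the other end, the gene of rank 7 ranged from -2.73 in horse 7 to -0.27 in horse 1, the gene of rank 9 from -2.23 in horse 8 to -0.09 in horse 5, and the gene of rank 39 from -1.85 in horse 3 to -0.09 in horse 1. For the gene of rank 39, horses 3 and 7 (-1.85 and -1.57) stood apart from the other 9, which ranged from -0.71 to -0.09.

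**Figure D2:**
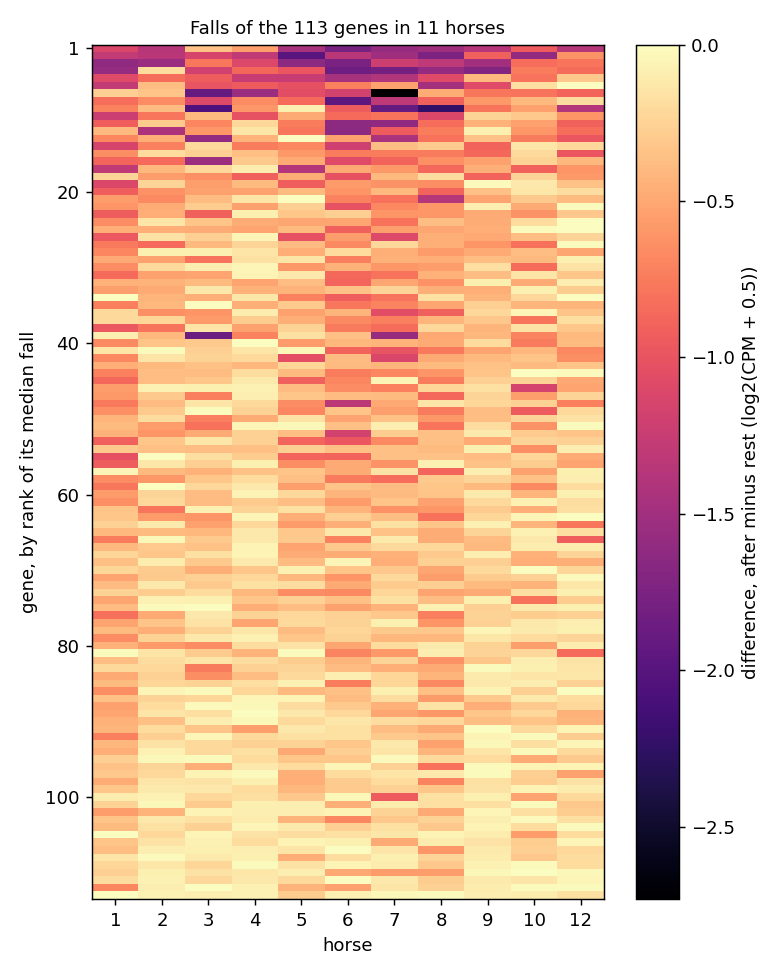
Difference of each of the 113 genes (rows, ordered by median difference, rank 1 at the top) in each of 11 horses (columns), with darker cells for larger falls on the log2(CPM + 0.5) scale. All cells are below 0, and the deepest, at -2.73, is the gene of rank 7 in horse 7.

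Large falls in single horses were uncommon. Of the 1243 differences (113 genes in 11 horses), 83 were below -1, and they came from 28 genes. A further 188 differences (15.1%) were above -0.1, close to no change. For 55 genes the weakest of the 11 falls was above -0.05. A total of 10 genes were lower by at least 0.2 in every horse, and 4 by at least 0.3. The fall exceeded counting error in 676 of the 1243 differences (54.4%), and over all genes and horses 22.5% of differences were falls beyond counting error. It did so in every horse for 6 of the 113 genes (6 of all genes) and in at least 6 horses for 65 genes (57.5%, against 11.1% of all genes). For many of the genes, the sign in a given horse was therefore not resolved by the depth of the libraries.

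The limit of 0 split genes with nearly equal values. Just inside it, the 5 genes with the weakest fall closest to 0 had a largest difference between -0.0017 and -0.00075, and their median differences ranged from -0.94 to -0.07. Just outside it, the 5 closest genes that were lower in 10 horses had a largest difference between 0.0017 and 0.0027, in horses 6, 9 and 12, with median differences from -0.46 to -0.25. In all, 471 genes were lower in exactly 10 horses, 470 of them outside the 100 most abundant, with a median of their median differences of -0.26. The horse that did not share the fall of these 471 genes was horse 10 for 116, horse 12 for 93, horse 9 for 72, horse 4 for 68 and horse 2 for 55, whereas it was horse 1 for 5 and horse 7 or 8 for 7 each. The number of genes chosen thus rested mainly on horses 10, 12, 9, 4 and 2. Without horse 10 the rule kept 228 genes, without horse 12 it kept 206, without horse 9 it kept 185 and without horse 4 it kept 181.

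The size of the fall differed between horses, and the order of the horses depended in part on the scaling. By column total, the median difference over the 113 genes was largest in horse 6 (-0.48), horse 8 (-0.48) and horse 1 (-0.48), followed by horse 7 (-0.41) and horse 5 (-0.37). It was -0.30 in horses 2 and 3, -0.28 in horse 10, -0.27 in horse 9, -0.22 in horse 12 and -0.20 in horse 4. With library sizes normalized by the trimmed mean of M values (TMM), it was again largest in horses 6, 1, 7 and 8 (-0.37, -0.37, -0.35 and -0.34), whereas horse 5 was at -0.25, a weaker fall than in horse 2 (-0.32) and in horses 3, 9 and 10 (-0.29 each), and horses 4 and 12 were weakest (-0.22 each). By column total, the strongest fall of a gene was most often in horse 6 (27 genes), horse 1 (22 genes) and horse 8 (18 genes), and the weakest most often in horse 12 (21 genes), horse 4 (18 genes) and horse 10 (16 genes). Horse 9 had the strongest fall of 0 genes. The number of genes whose fall exceeded counting error ranged from 41 in horse 4 (36.3%, against 15.8% of all genes lower beyond counting error in that horse) to 91 in horse 1 (80.5%, against 31.5% of all genes). The share of all genes was lowest in horse 9 (12.2%) and highest in horse 8 (34.8%).

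The 5 horses with the largest falls by column total were also those with the highest shares of all genes below 0. With TMM, horse 2 took the place of horse 5 among the 5 largest falls. The median difference over all 11330 genes was -0.10 in horse 1, -0.12 in horse 5, -0.10 in horse 6, -0.06 in horse 7 and -0.13 in horse 8, and between -0.01 and 0.03 in the other 6 horses. The share of all genes below 0 was 57.8% to 73.1% in these 5 horses and 43.9% to 51.6% in the other 6. Relative to each horse's median over all genes, the median difference of the 113 genes ranged from -0.39 in horse 6 to -0.21 in horse 12, with -0.25 in horse 5 and -0.33 in horse 2. The part of this shift in the choice of genes was measured by rescaling the libraries. With TMM, the median over all genes lay between -0.02 and 0.02 in every horse and the 113 genes had a median difference of -0.30. Of the 113 genes, 78 remained lower in all 11 horses with TMM and 79 with the size factors of DESeq2, and all 113 kept a median difference below 0 under both. Under TMM, 98 of the 113 genes were below 0 in horse 5, 104 in horse 6, 105 in horse 8 and 106 in horse 1, and all 113 in horses 2, 4, 9, 10 and 12. The balance with genes higher in every horse depended on the scaling as well. By column total, 46 genes outside the most abundant 100 were higher in all 11 horses, so that 71.1% of genes with 1 direction in every horse were lower, whereas with TMM 92 genes were lower and 82 higher (52.9% lower).

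**Figure D3:**
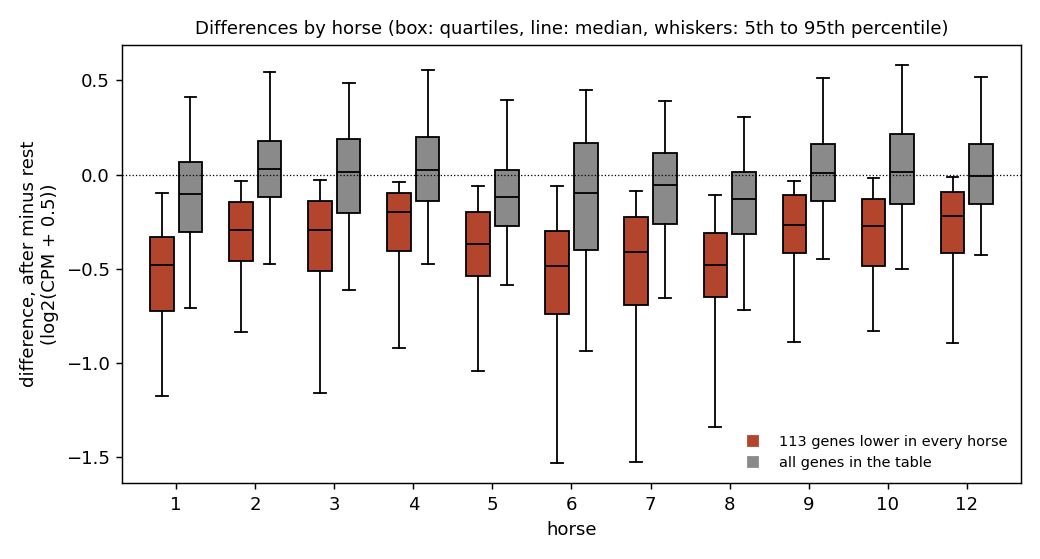
Differences of the 113 genes and of all genes in each of 11 horses on the log2(CPM + 0.5) scale (boxes show quartiles, lines the median and whiskers the 5th and 95th percentiles). The median over the 113 genes lies between -0.48 and -0.20, and the median over all genes between -0.13 and 0.03.

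The 113 genes ranged from low to moderate resting abundance. Their mean CPM over the 12 rest libraries ranged from 0.854 to 541, with a median of 8.34 and quartiles of 3.46 and 16.5, beside a range from 0.33 to 145129 CPM, a median of 9.23 and quartiles of 3.46 and 24.4 over all genes. Under 2 CPM lay 14 of them (12.4%, against 14.3% of all genes). Above 100 CPM lay 2 (1.77%, against 6.21% of all genes). None (0) of the 100 genes with the highest resting CPM, all at 812 CPM or more, was lower in every horse, so that the limit on abundance removed no gene. The more abundant of the 2 genes above 100 CPM, of rank 95, ranged from 467 to 636 CPM at rest and from 379 to 621 CPM after exercise, and its difference ran from -0.49 in horse 10 to -0.01 in horse 3. The other, of rank 109, ranged from 115 to 186 CPM at rest and from 101 to 149 CPM after exercise. Both had small falls, with median differences of -0.20 and -0.14.

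How the fall related to the resting level depended on the measure. The median difference was -0.35 for the 42 genes under 5 CPM, -0.33 for the 50 genes from 5 to 20 CPM and -0.35 for the 21 genes at 20 CPM or above. The pseudocount shrinks the difference of genes with low counts. The fitted log2 fold change (edgeR), which uses TMM scaling and a smaller added count, had a median of -0.44, -0.31 and -0.34 in the same groups, beside -0.03, -0.0043 and 0.03 over all genes. Across the 113 genes, Spearman's rho with resting CPM was 0.16 for the median difference and 0.36 for the fitted log2 fold change, across genes that share the same libraries. The 5 genes with a median difference below -1 all lay between 7.84 and 25.8 CPM. More falls were beyond counting error at higher resting levels, among the 113 genes as among all genes. The fall exceeded counting error in 35.3% of the differences of genes under 5 CPM, in 60.7% of those from 5 to 20 CPM and in 77.5% of those at 20 CPM or above, and over all genes 14.7%, 22.7% and 31.4% of the differences at these levels were falls beyond counting error. The standard deviation of a difference from counting alone, without the pseudocount, had a median of 0.28, 0.14 and 0.08 in these groups, and the observed standard deviation over horses one of 0.25, 0.21 and 0.21. Over all genes of the table the observed standard deviation had a median of 0.34, 0.23 and 0.17 at these levels. The pseudocount and the choice of genes with 1 sign in all horses both narrow the observed spread of the least abundant genes, so it is not directly comparable with the value from counting. Of the 113 genes, 107 reached 10 counts or more in all 23 libraries, and the lowest count of any of them was 4.

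**Figure D4:**
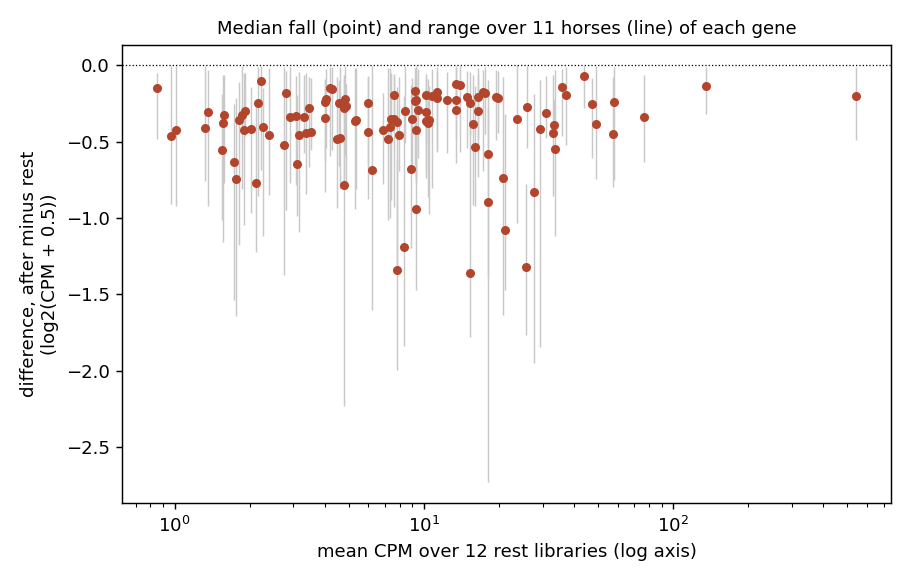
Median difference over 11 horses (points) and the range from the strongest to the weakest fall (lines) of each of the 113 genes on the log2(CPM + 0.5) scale, against mean CPM over the 12 rest libraries (log axis). The points below -1 lie between 7.84 and 25.8 CPM.

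No gene had ranges that separated the groups. For 0 of the 113 genes was the highest after exercise CPM below the lowest rest CPM of the same 11 horses, and the same held for 0 of the 11330 genes (0%). All 113 genes had at least 1 after exercise library below the lowest rest library, with a median of 5 of 11 libraries (1 over all genes), and 50 genes (44.2%, against 2.08% of all genes) had 6 or more. The choice of genes used the same values, and nothing is read from these shares. The standard deviation of log2(CPM + 0.5) over the 11 horses had a median of 0.25 at rest and 0.25 after exercise, the same as over all genes (0.25 and 0.25). It was smaller after exercise than at rest for 61 of the 113 genes (54.0%), against 51.3% of all genes. The coefficient of variation over the 12 rest libraries had a median of 20.1% for the 113 genes and 20.1% for all genes.

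The level of a gene in a horse, taken over both of its biopsies, did not enter the choice. When the horse terms were tested jointly (edgeR, quasi-likelihood), 60 of the 113 genes (53.1%) passed an adjusted p of 0.05 for a difference among horses, where 34.6% of all genes did. The error of that test is the spread of the differences over horses. These differences made the choice, so the 2 shares were not measured under equal conditions. The standard deviation over horses of the mean log2 level of both biopsies, which does not use that error, had a median of 0.22 for the 113 genes and 0.21 for all genes. In the same model, 93 of the 113 genes were called lower after exercise, where 3.45% of all genes were, and nothing is read from this count because the same contrast chose the genes. Without the pairing by horse, 32 of the 113 were called, where 0.697% of all genes were. The 20 genes that were not called had a median difference of -0.17, and the 93 that were called one of -0.38. A further 298 genes called lower were not lower in every horse.

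The falls of different genes varied together only weakly over the horses. The 113 genes form 6328 pairs. Pearson's r between the 11 differences of a pair had a median of 0.19 and quartiles of -0.05 and 0.42, beside a median of 0.08 and quartiles of -0.19 and 0.33 over all pairs of genes in the table. The correlations share libraries and are given as descriptions. Of the pairs, 29.2% had an r below 0, against 42.2% over all genes, 8.87% had an r above 0.6 (6.77% over all genes) and 0.948% one above 0.8 (0.922% over all genes). After each horse's median difference over all genes was subtracted, the median r of the 113 genes was 0.057 (-0.00072 over all genes), and with TMM scaling it was 0.041 (-0.00041 over all genes). Most of the median of 0.19 was thus no longer present when the shift of all genes in a horse was taken out.

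**Figure D5:**
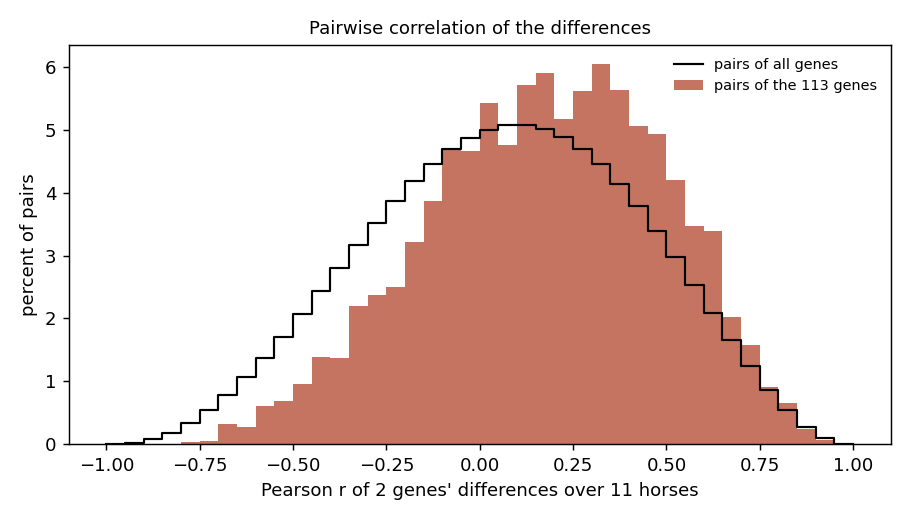
Distribution of Pearson's r between the differences of 2 genes over 11 horses, as percent of the 6328 pairs of the 113 genes (bars) and of all pairs of genes in the table (line). The median is 0.19 for the bars and 0.08 for the line.

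The spread over the horses was divided over several components. A principal component analysis was made of the differences by column total, after each gene's mean was removed. The shift of all genes in a horse was not taken out. The analysis placed 24.3% of the spread among horses on the first component, 21.2% on the second and 12.1% on the third. On the first component horses 1, 6, 7 and 8 stood opposite horses 2, 4, 9, 10 and 12, with horses 3 and 5 in between. On the second, horses 3 and 7 stood opposite horses 1 and 5. The 2 strongest falls of a gene were in horses 1 and 8 for 13 genes, in horses 3 and 8 for 11 genes, in horses 6 and 7 for 10 genes and in horses 1 and 6 for 9 genes. The median r of a gene with the other 112 ranged from -0.23, for the gene of rank 105, to 0.44, for the gene of rank 61, and it was below 0 for 11 genes.

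Some pairs followed each other closely. The highest r was 0.95, between the genes of rank 22 and rank 32, both of which fell most in horse 6 (-1.01 and -0.88) and very little in horse 9 (-0.09 and -0.08) and horse 12 (-0.02 and -0.09). In all, 60 pairs had an r above 0.8 (0.948%), which was near the share over all pairs of genes in the table (0.922%). These pairs involved 61 of the genes, and no gene was tied in this way to more than 6 others. The genes of rank 7 and rank 39, which shared large falls in horses 3 and 7, had an r of 0.81, and the gene of rank 9, also low in both horses, had an r of 0.63 with rank 39 and 0.42 with rank 7. The 5 genes with a median difference below -1 had r among them from 0.01 to 0.68 with a median of 0.34. The medians were 0.19 over the 113 genes and 0.08 over all genes. The r values of single pairs are by column total, with the shift of all genes in a horse left in. Those among the 5 genes rest on few pairs. ENSECAG00000013247 and ENSECAG00000018928 had an r of 0.61 with each other, both weakest in horse 3 and strongest in horse 6. ENSECAG00000013247 had an r above 0.6 with 4 other genes of the 113 and below 0 with 27, and ENSECAG00000018928 with 12 and 30. Among all pairs of the 113 genes, 8.87% had an r above 0.6 and 29.2% one below 0. Over all genes these shares were 6.77% and 42.2%. Whether any pairs share reads or overlap in the genome could not be examined without coordinates.

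The rest library of horse 11 took no part in the differences, but the medians it is compared with come from the paired libraries that chose the genes. The choice favored low after exercise medians and high rest medians. It can therefore by itself set the shares below apart from those of all genes, and nothing is read from that gap. In this library, 71 of the 113 genes (62.8%) were above the median of the 11 after exercise libraries, where 38.3% of all genes were. With TMM scaling, which brought the share over all genes to 49.7%, 79 of the 113 were above it. By column total its values were low for a rest library, over all genes as well, with 19 of the 113 genes (16.8%, against 34.0% of all genes) above the median of the 11 paired rest libraries and 41 (36.3%, against 44.3% of all genes) nearer to the rest median than to the after exercise median. Of the 21 genes with a median difference below -0.5, 17 were above the after exercise median and 8 were nearer to the rest median. ENSECAG00000013247 had 10.01 CPM and ENSECAG00000018928 18.8 CPM in this library, both between the medians of the 2 groups. This is a single library, and no test was made.

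The dependence of the choice on each horse can also be given as a share. For each horse in turn, genes lower in the other 10 horses were picked outside the 100 most abundant, and the share of them that was lower in the horse left out was compared with the share of all genes below 0 in that horse. The genes picked and lower in the horse left out are, by column total, always the 113 themselves, so the share restates, for each horse, how many genes the rule kept without it, and no support is drawn from it. The share ranged from 49.6% in horse 10 to 95.8% in horse 1, with a median of 85.0%. In horse 1 it was 95.8% against 65.9% of all genes, in horse 3 it was 85.0% against 48.3%, in horse 7 it was 94.2% against 57.8% and in horse 8 it was 94.2% against 73.1%. In horse 10, by contrast, it was 49.6% against 48.1%, and in horse 12 it was 54.9% against 51.6%. The median difference of the picked genes was -0.47 in horse 1, -0.02 in horse 12 and 0.0032 in horse 10. With TMM the shares were 57.1% against 50.9% in horse 10 and 55.1% against 52.1% in horse 12, and ranged from 72.4% to 92.9% in the other 9 horses.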

How the data were processed

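Per the methods of the study, the authors sequenced poly(A) RNA with a stranded kit, aligned the reads with STAR to Ensembl horse coding sequences (EquCab2.86), and kept genes by a CPM filter. They deposited raw read counts per gene, and the version of STAR was not given in the sources used here. All 23 columns were matched to samples by name. From the counts, CPM by column total and the differences of the 11 paired horses were computed. The genes and lists were chosen with earlier results of these data known. Marker and pathway lists were not used, because 0 identifiers matched a symbol. Pairs come from the horse named in the labels, and deviations of both libraries of a horse from their group means correlated at 0.340 or more in each horse (mean 0.485). Fold changes and calls came from edgeR 4.0.16 (R 4.3.3, TMM, glmQLFit and glmQLFTest, horse as a block, Benjamini-Hochberg adjustment at 0.05 over 11330 genes), checked on simulated counts. Alternatives used DESeq2 1.42.0, limma 3.58.1, other pseudocounts, scalings and count filters, and each horse left out. Every pair of libraries differed beyond sampling noise (chi-square per degree of freedom 13.1 or more). A count of 3 equals 0.102 to 0.133 CPM. The 2 identified genes follow the rule stated in the text.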

Additional observations from a re-analysis of the deposited data

How the results depend on the processing

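The pseudocount cannot change the sign of a difference, so the same 113 genes were chosen by construction with 0.1 or 2 CPM, and the limit on abundance removed none of them. The number was 92 with TMM or with the size factors of DESeq2, 97 with the column total without the 10 most abundant genes and 107 when each library had to hold 10 counts or more. When 1 horse was left out, the rule kept 118 to 228 genes, which by construction hold the 113. The median fall ranged from -0.38 with a pseudocount of 0.1 CPM to -0.25 with one of 2 CPM, and from -0.36 to -0.33 with a horse left out. The median pairwise r was 0.041 with TMM and 0.057 after each horse's median difference over all genes was subtracted, and ranged from 0.17 to 0.22 with a horse left out. It was 0.18 as Spearman's rho.

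Without the block for horse, in the unpaired fit of the same 22 libraries, 32 of the 113 genes were called lower, against 93 with the pairing, and 79 against 391 of all genes. The other fits of all 11 horses called 83 to 93 of the 113 genes, beside 3.47% to 3.86% of all genes, and those with a horse left out 73 to 90, beside 175 to 476 of all 11330 genes. The number over all genes was 198 without horse 1, 239 without horse 3, 232 without horse 6, 175 without horse 7 and 195 without horse 8, and it rose to 476 without horse 10 and 462 without horse 12. The number of the 113 genes that differed between horses was 45 to 60 in the fits run (39.8% to 53.1%), beside 25.3% to 41.1% of all genes. The fitted log2 fold change of ENSECAG00000013247 lay between -1.33 and -1.18 and that of ENSECAG00000018928 between -1.33 and -1.23 under every fit. The median share in the horse left out was 74.2% with TMM. In the library of horse 11, 79 of the 113 genes were above the after exercise median with TMM, beside 49.7% of all genes. With the size factors of DESeq2 it was 80, beside 50.6%. Nothing is read from these counts, because the choice favored low after exercise medians. Depth limits the sign of small falls at all resting levels, and most in genes under 5 CPM. The cause of these shifts was not tested.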
